A study of Homo sapiens with 8 samples.

Results

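The undifferentiated state of NTera2/D1 cells was described from the 2 arrays of cells that had received DMSO and a small interfering RNA against LacZ (siLacZ). They are 2 of 8 arrays, chosen by their titles alone. NTera2/D1 is a cloned human embryonal carcinoma line, derived from a testicular germ cell tumour and widely used as a model of pluripotent cells. LacZ is a bacterial gene that human cells lack, so siLacZ is a control for the transfection, and DMSO is the solvent of retinoic acid (RA). The other groups of the series, with 2 arrays each, were siLacZ cells given 10 µM RA and cells with a small interfering RNA against RNF20 (siRNF20), given DMSO or RA. A single time of 72 h is given for the series; it is stated for RA, and no other time is named for the DMSO cells. All groups are transfected cells of the same line. The arrays of each group carry the numbers GF117 and GF120. The labels call them biological duplicates and do not say what the numbers stand for.

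Embryonal carcinoma cells are the malignant counterpart of the pluripotent cells of the early embryo. Pluripotent cells are held in that state by a small circuit of transcription factors, of which POU5F1 (OCT4), SOX2 and NANOG are the best known, while the genes of the germ layers stay silent until a signal such as RA starts differentiation. Because these tumours arise from the germ line, their cells can also carry transcripts of early germ cells.

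Expression was measured on Affymetrix exon arrays, which read each gene through several rows (probe sets), with a median of 15 rows per gene. The value of a gene was the median log2 intensity over its rows in each array, for 19426 genes. Its rank is given as a percentile, the percent of genes at or below it. Because rows differ in how strongly they bind their target, a rank mixes transcript level with probe affinity, and the quartiles of a gene's rows lay 1.68 log2 units apart in the median gene. Genes with few rows or with near-identical copies elsewhere in the genome (NANOG, POU5F1, CRIPTO, the ribosomal proteins) are uncertain to that extent. A gene was called in the top 10% where it was above the 90th percentile in both arrays, which 8.92% of all genes were, and the limit lay at 8.58 log2 units in GF117 and 8.55 in GF120. The arrays carry no detection calls in the table used here, so 395 olfactory receptor genes, which serve the sense of smell, stood in for background. A gene was called at the olfactory receptor level where it was at or below the 95th percentile of these genes in both arrays (4.79 log2 units in each), which held for 28.9% of all genes. Counts at this level hold for this limit: with the 99th percentile 57.9% of all genes were at or below it in both arrays, and when only rows brighter than the median row were kept (without dim rows) 68.8% of the 15904 genes that remained were. No test was made, since no groups are compared and 2 arrays of 1 group allow none.

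The label of the cells was checked against markers. Lists and members were chosen with earlier results of these data known, so the check is only descriptive. Of 12 embryonal carcinoma markers 10 were in the top 10% and none at the olfactory receptor level. Below the top 10% were POU5F1, at the 66.7th percentile, and TNFRSF8 (CD30). The intensities of all 12 summed to 12228 in GF117 and 12078 in GF120. None of the few markers fixed for fibroblasts, blood, endothelium, epidermis, neurons, mesoderm, endoderm or trophoblast was in the top 10%. Their sums lay between 35.2 for 4 blood genes and 415 for 4 endothelial genes in GF117. In GF120 they lay between 43.3 for 3 epidermal genes and 372 for the endothelial genes. The longer lists read below did hold some in the top 10%: 3 of 24 fibroblast and stromal and 5 of 29 epithelial and epidermal genes. In the blood and immune, endothelial, neuron and glia, mesoderm, endoderm and trophoblast lists none was. The blood markers PTPRC, CD3D, CD14 and LYZ were all at the olfactory receptor level. RNF20, the gene targeted elsewhere in the series, read 8.24 and 8.10 log2 units in these GF117 and GF120 arrays. It read 5.89 to 6.48 in the 4 siRNF20 arrays, 8.10 in the GF120 RA siLacZ array and 6.08 in the library labelled GF117 RA siLacZ, where it goes against that label. That array also stood apart, with correlations of 0.506 to 0.557 with the other 7, which correlated at 0.945 to 0.981 among themselves, and it was not used. Whether its label or the array as a whole is at fault was not tested.

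Among the stem-cell genes LIN28A stood highest. LIN28A encodes an RNA-binding protein that blocks the maturation of let-7 microRNAs. Its level was 11.71 log2 units in GF117 and 11.58 in GF120, at the 99.8th percentile over 10 rows. SOX2, the partner of POU5F1 on DNA, had 10.50 and 10.55 log2 units over 6 rows. NANOG, a homeodomain factor of the same circuit, read 9.90 and 9.76 over 2 rows. All 3 were in the top 10% in both arrays, and the arrays differed by at most 0.14 log2 units. POU5F1 read lower, at 7.10 and 6.92 log2 units and the 66.7th percentile. It is represented by 4 rows whose means ran from 5.15 to 9.16, so its rank rests on which rows are taken: the percentile was 73.1 with the mean over rows and 50.5 without dim rows.

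The promoter of NANOG is shown because it was the only 1 of 14319 promoters that held a SOX site and an octamer side by side (CATTGT, any 1 base, then the octamer's first 7 letters, ATGCAAA), searched on both strands. These are the elements that POU5F1 and SOX2 are known to bind. The planned search covered only the octamer and the SOX site. The longer pattern, with the octamer cut to 7 letters, was added to it and has the letters found at NANOG. That NANOG was the only match is therefore not a result. The window is RefSeq's, 250 bases before to 50 after the start on GRCh38.p14 (chr12:7789152-7789451, plus strand). Capitals mark the match, on the opposite strand at positions -120 to -107 from the start.
NANOG: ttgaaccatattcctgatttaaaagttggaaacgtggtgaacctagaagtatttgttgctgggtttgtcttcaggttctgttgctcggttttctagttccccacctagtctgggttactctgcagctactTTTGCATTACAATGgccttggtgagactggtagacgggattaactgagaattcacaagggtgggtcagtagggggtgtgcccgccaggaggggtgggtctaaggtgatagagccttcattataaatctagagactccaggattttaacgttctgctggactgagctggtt
The octamer alone, ATGCAAAT, was in 1.46% of promoters of genes in the highest 10% by mean percentile, against 1.61% of all promoters. The SOX site alone, CATTGT, was in 5.84%, against 7.70%. Both strands were searched, and either site may overlap the composite. Neither short site was more frequent in the promoters of highly expressed genes, and a match of letters is not evidence of binding.

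Of 24 measured pluripotency transcription factors 9 were in the top 10%, 4 were at the olfactory receptor level and the median percentile was 76.7, against 49.9 for all genes. Besides SOX2 and NANOG the top 10% held SALL4 with 9.74 and 9.78 log2 units, MYBL2, SALL1, ETV4, ZIC2, PRDM14 with 8.63 and 9.25, and ZSCAN10. SALL4 and PRDM14 are zinc-finger factors that sustain pluripotency and act in germ-cell precursors. OTX2, a factor of the primed epiblast, passed the limit in GF120 alone, with 8.44 in GF117 and 8.76 in GF120. Factors linked with the naive state of mouse stem cells lay below the top 10%. KLF4 reached 6.77 and 6.54 log2 units, at the 60.6th percentile and above the median gene. TFCP2L1 had 6.03 and 5.59, at the 47.1st percentile, and KLF5 had 5.03 and 4.43. ESRRB, TBX3, NR5A2 and ZFP42 (REX1) were at the olfactory receptor level, with ZFP42 lowest at 3.18 and 3.26. UTF1, a chromatin-bound factor of embryonal carcinoma cells, read 6.72 and 6.48. FOXD3 read 7.32 and 6.60.

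**Figure D1:**
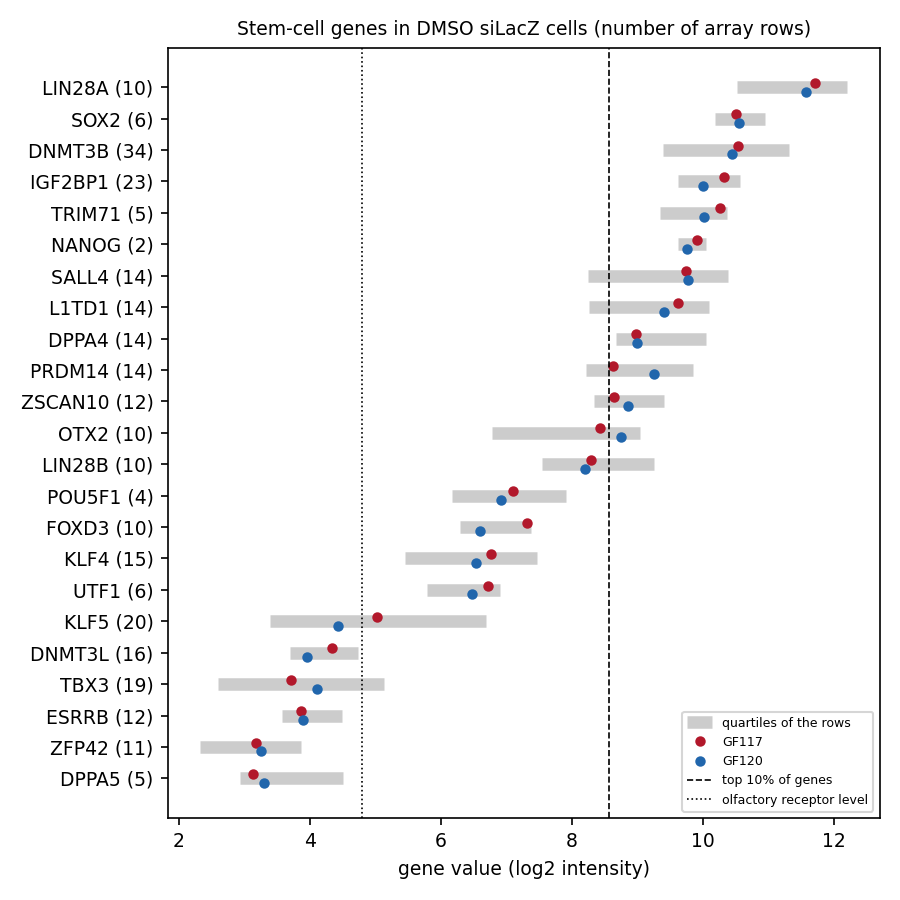
Gene values of 23 stem-cell genes in log2 intensity on the x axis, with GF117 in red and GF120 in blue, the quartiles of each gene's rows in grey and the number of rows in brackets. The dashed line marks the limit of the top 10% and the dotted line the olfactory receptor level; 11 genes from LIN28A to ZSCAN10 lie right of the dashed line in both arrays, POU5F1 lies between the lines, and DNMT3L, TBX3, ESRRB, ZFP42 and DPPA5 lie left of the dotted line.

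Stem-cell RNA, cofactor and chromatin genes stood higher still as a list, with 14 of 27 in the top 10%, 2 at the olfactory receptor level and a median percentile of 92.7. DNMT3B, the de novo DNA methyltransferase of pluripotent cells, had 10.54 log2 units in GF117 and 10.44 in GF120. IGF2BP1, an mRNA-binding protein, had 10.32 and 10.01, and TRIM71, an RNA-binding ligase that let-7 represses, 10.26 and 10.03. L1TD1, a transposon-derived RNA-binding protein, read 9.63 and 9.42. These values differed between the arrays by less than the 0.335 SD of the difference over genes above the olfactory receptor level. DPPA4, a chromatin-associated protein of pluripotent cells, was in the top 10% with 8.98 and 8.99 log2 units, whereas its neighbour and partner DPPA2 read 6.71 and 6.08. The paralogue LIN28B, at 8.29 and 8.20, stood below LIN28A. DNMT3L, the catalytically inactive cofactor of germ cells, and DPPA5 were at the olfactory receptor level, DPPA5 with 3.13 and 3.31.

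Of 25 surface antigen genes 12 were in the top 10%. GJA1 (connexin 43, a gap junction channel) led with 10.74 log2 units in GF117 and 10.89 in GF120, followed by CD9, F11R, CRIPTO, PODXL and CD24. PODXL, which carries the TRA-1-60 and TRA-1-81 epitopes used to sort these cells, had 10.12 and 10.21. TNFRSF8 (CD30), a clinical marker of embryonal carcinoma, read 8.15 and 7.93, and KIT, which marks seminoma, 7.68 in each array. ALPL, the alkaline phosphatase of stem cells, had 7.80 and 7.52. The germ-cell isoenzyme ALPG had 6.89 and 6.85, and the placental isoenzyme ALPP, with 3.96 and 3.57, was the only member at the olfactory receptor level. ALPP and ALPG are near-identical copies.

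Early germ-cell genes were split. PIWIL2, which binds piRNAs, had 8.86 log2 units in GF117 and 8.70 in GF120, and TDRD12, a Tudor protein of the same pathway, had 8.78 and 8.75. TFAP2C, a factor that specifies human primordial germ cells, stood at the 82.5th percentile in GF117 and the 86.9th in GF120, with 8.27 log2 units in GF120 and a difference GF117 minus GF120 of -0.27. These 3 were the highest of the list, whereas other members of the piRNA pathway lay at the bottom: PIWIL1, PIWIL4, TDRD1, TDRD9 and MAEL were at the olfactory receptor level, MAEL with 3.06 and 2.62. DDX4 (VASA), the helicase of the germ plasm, had 2.64 and 3.01 log2 units. SOX17 read 6.02 and 5.53, NANOS3 5.72 and 5.44, and PRDM1, a further factor of human germ-cell specification, 3.86 and 4.28. DAZL differed between the arrays, with 4.91 in GF117 and 3.56 in GF120. In all, 2 of 24 early germ-cell factors were in the top 10% (8.33%, close to the 8.92% of all genes). At the olfactory receptor level were 10 (41.7%, against 28.9% of all genes). When the 99th percentile of the olfactory receptors was taken as the limit 19 were, against 57.9% of all genes.

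Genes of later germ cells stood at the bottom. Of 31 meiosis and sperm genes none was in the top 10%, 21 were at the olfactory receptor level and the median percentile was 13.1. The synaptonemal complex genes SYCP1, SYCP2 and SYCP3 read 2.33 and 2.67, 2.64 and 2.94, and 2.40 and 3.02 log2 units in GF117 and GF120. SPO11, which makes the meiotic double-strand breaks, read 2.80 and 2.69. The highest member was TEX15, a partner of the piRNA pathway in mouse testis, with 6.83 and 6.59. Of 19 cancer-testis antigen genes 17 were at this level and their median percentile was 12.5. The exceptions were LIN28B, which the list of stem-cell RNA genes also holds, and MAGEA10, at 3.52 in GF117 and 4.98 in GF120. Of 17 oocyte genes 12 were at the olfactory receptor level, and ZAR1, a maternal RNA-binding protein, was highest with 6.83 and 6.13.

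The promoters of these contrasting genes differed in their CpG content. The ratio of observed to expected CpG in the same RefSeq windows was 0.323 at NANOG, 0.355 at DPPA4 and 0.0732 at GDF3, genes of the top 10%. It was 0.880 at SYCP3 and 1.12 at MAEL, genes at the olfactory receptor level. They are printed because each goes against the pattern over all genes given next. Every CG is in capitals. DPPA4 lies at chr3:109337497-109337796, minus strand. GDF3 lies at chr12:7695726-7696025, minus strand. SYCP3 lies at chr12:101739413-101739712, minus strand. MAEL lies at chr1:166975332-166975631, plus strand.
DPPA4: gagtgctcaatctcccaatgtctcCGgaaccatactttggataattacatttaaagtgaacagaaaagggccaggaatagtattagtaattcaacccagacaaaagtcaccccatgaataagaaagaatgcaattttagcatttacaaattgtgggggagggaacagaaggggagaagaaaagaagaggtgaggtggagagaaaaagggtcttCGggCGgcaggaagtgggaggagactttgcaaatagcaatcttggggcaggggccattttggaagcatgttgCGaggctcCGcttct
GDF3: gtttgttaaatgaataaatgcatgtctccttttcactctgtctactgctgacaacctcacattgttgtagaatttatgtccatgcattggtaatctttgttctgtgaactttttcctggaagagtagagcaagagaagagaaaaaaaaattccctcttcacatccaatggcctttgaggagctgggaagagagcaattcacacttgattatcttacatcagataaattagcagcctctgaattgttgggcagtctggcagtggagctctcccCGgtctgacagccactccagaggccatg
SYCP3: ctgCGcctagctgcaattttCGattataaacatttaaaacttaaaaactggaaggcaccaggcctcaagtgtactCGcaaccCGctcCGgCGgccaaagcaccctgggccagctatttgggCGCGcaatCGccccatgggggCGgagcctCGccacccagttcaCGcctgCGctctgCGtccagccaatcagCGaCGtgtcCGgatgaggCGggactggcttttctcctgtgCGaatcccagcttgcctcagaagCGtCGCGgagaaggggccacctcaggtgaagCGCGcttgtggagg
MAEL: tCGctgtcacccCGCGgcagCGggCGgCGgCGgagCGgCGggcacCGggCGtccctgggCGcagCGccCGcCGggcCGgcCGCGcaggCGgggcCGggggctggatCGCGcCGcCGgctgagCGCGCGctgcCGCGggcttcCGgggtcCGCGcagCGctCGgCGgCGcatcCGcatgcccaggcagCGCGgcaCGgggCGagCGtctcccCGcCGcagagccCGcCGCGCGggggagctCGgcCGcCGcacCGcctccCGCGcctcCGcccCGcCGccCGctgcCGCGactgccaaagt
The 3 windows of NANOG, DPPA4 and GDF3 hold 5, 5 and 1 CG, and those of SYCP3 and MAEL 24 and 60. The 5 genes were chosen after their values were seen. Other top-10% genes with few CG in this window were GJA1 (ratio 0.216), CRIPTO (0.124), DNMT3B (0.118) and KRT8 (0.111). Other germ-cell genes at the olfactory receptor level with many were TDRD1 (0.746), SYCP1 (0.724) and PIWIL1 (0.749). Only the first listed promoter of a gene is read here, and 3846 genes have several. A ratio therefore need not hold for other starts of the same gene. DDX4, at 0.120, and SOX2, at 0.667, followed the pattern over all genes.

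Over all genes CpG content was higher at higher levels. A promoter was called CpG-rich at a ratio of at least 0.6. Of the protein-coding genes 81.4% had a promoter in the table. CpG-rich promoters made up 91.9% of 1576 genes in the highest 10% of levels and 20.7% of 1288 in the lowest 10%, against 68.0% of all 14319. Of 10 equal bins of level, numbers 2 to 5 had a promoter for fewer than 80% of their coding genes (76.1% to 78.8%) and are not read. Across genes, which are not independent replicates, the rank correlation of level with the CpG ratio was 0.517 and with the GC content 0.355. The part of base composition in the intensities was not tested. Without dim rows the share in the lowest 10% was 52.0%.

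**Figure D2:**
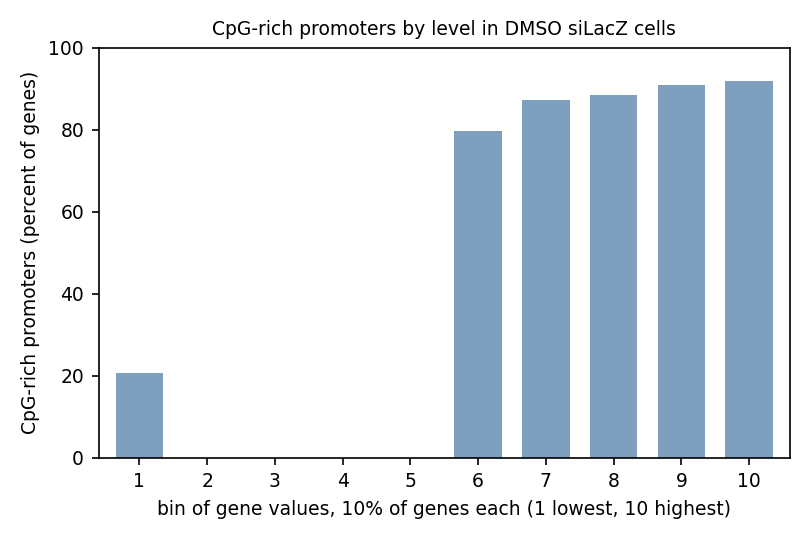
Percent of genes with a CpG-rich promoter on the y axis, by bins of 10% of genes from the lowest (1) to the highest (10) gene values on the x axis. Bins 2 to 5 are left blank because fewer than 80% of their coding genes had a promoter in the table; the bar of the lowest bin is at 20.7% and that of the highest at 91.9%.

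Lists of the 3 germ layers had lower median percentiles than all genes (49.9), at 38.8 for neural progenitor, 38.5 for neuron and glia, 31.0 for mesoderm, 23.1 for endoderm and 25.5 for trophoblast genes. Of 28 ectoderm and neural progenitor genes 1 was in the top 10% and 10 (35.7%) were at the olfactory receptor level. That 1 was VIM, the intermediate filament vimentin, with 8.59 log2 units in GF117 and 8.67 in GF120. NES (nestin), at 8.24 and 8.44, and the RNA-binding protein MSI1, at 8.36 and 8.15, came next. The patterning factors PAX6, ZIC1 and TFAP2B stood at the bottom, PAX6 with 3.54 and 3.51 over 47 rows. Of 27 postmitotic neuron and glia genes none was in the top 10% and 11 were at the olfactory receptor level. NEFL, a neurofilament subunit, was highest with 7.65 and 7.38, and the water channel AQP4 lowest with 2.89 and 2.80.

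Among 31 mesoderm and muscle genes none was in the top 10% and 13 were at the olfactory receptor level. NKX2-5, a heart factor, had 7.62 and 7.39 log2 units, TCF15 7.27 and 7.15, and KDR, the VEGF receptor, 7.23 and 6.64. TBXT (brachyury), the mark of the primitive streak, had 5.31 and 5.25, and EOMES 4.50 and 3.80. Of 26 endoderm and liver genes none was in the top 10% and 14 were at the olfactory receptor level. FOXA2 had 4.96 and 4.67 log2 units, GATA6 5.32 and 4.97, AFP 2.92 and 3.25 and ALB 3.25 and 3.55. Of 22 trophoblast and extraembryonic genes none was in the top 10% and 12 were at the olfactory receptor level, but TEAD4 read 8.43 and 8.16, next to TFAP2C. CGA, the alpha chain of chorionic gonadotropin, had 3.26 and 2.31. With the 99th percentile as the limit the counts at that level were 20 for neural progenitor, 23 for neuron and glia, 26 for mesoderm, 25 for endoderm and 20 for trophoblast genes, while 57.9% of all genes were at or below that limit.

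Of 36 HOX genes, the factors that set position along the body axis, none was in the top 10% and 23 were at the olfactory receptor level. The 4 highest were HOXD13 with 8.13 log2 units in GF117 and 8.05 in GF120, HOXD10 with 7.74 and 6.96, HOXD11 with 6.88 and 6.80, and HOXD9 with 6.18 and 6.08. They all belong to the 5′ part of the HOXD cluster, on which HOXD12, at the 24.7th percentile in GF117 and the 35.6th in GF120, read lower. HOXD9 stood close to the median gene, at 6.07 in GF117 and 5.92 in GF120. HOXA13, of another cluster, was also above the olfactory receptor level in both arrays. HOXA4 and HOXC9 were lowest, HOXA4 with 1.76 and 2.17.

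Lists of markers known from other cell types were also read. Of 24 fibroblast and stromal genes 7 (29.2%) were at the olfactory receptor level, close to the 28.9% of all genes, and the median percentile was 46.1. In the top 10% were 3: FBLN1 with 9.16 and 9.07 log2 units, FN1 (fibronectin) with 9.55 and 8.73, and VIM. The collagens COL1A1, COL1A2 and COL3A1 stood lower than these 3, with 5.96 and 5.49, 4.61 and 4.48, and 3.93 and 4.49 log2 units in GF117 and GF120, and the stromal proteoglycans DCN and LUM were at the olfactory receptor level. Of 16 endothelial genes 7 were at this level, among them PECAM1 and CDH5. TEK, the angiopoietin receptor, read 8.49 and 8.26, and its 29 rows ran from 6.76 to 9.67, so that every row lay above the olfactory receptor level. Of 24 blood and immune genes 18 were at the olfactory receptor level. Of 29 epithelial and epidermal genes 5 were in the top 10% and 10 (34.5%) at the olfactory receptor level. The 5 were KRT8 with 10.42 and 10.44 log2 units, KRT18, EPCAM, CDH1 and ESRP1, all known from simple epithelia. EPCAM and CDH1 were also among the 12 embryonal carcinoma markers above. Other genes of simple epithelia were lower: KRT20, KRT7 and CLDN4 were at the olfactory receptor level, and CLDN7, with 5.33 and 5.86, and MUC1, at the 45.8th percentile, were below the median gene. The epidermal genes KRT14 and TP63 were at the olfactory receptor level, and KRT5, at 5.11 and 4.64, was so in GF120 alone.

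**Figure D3:**
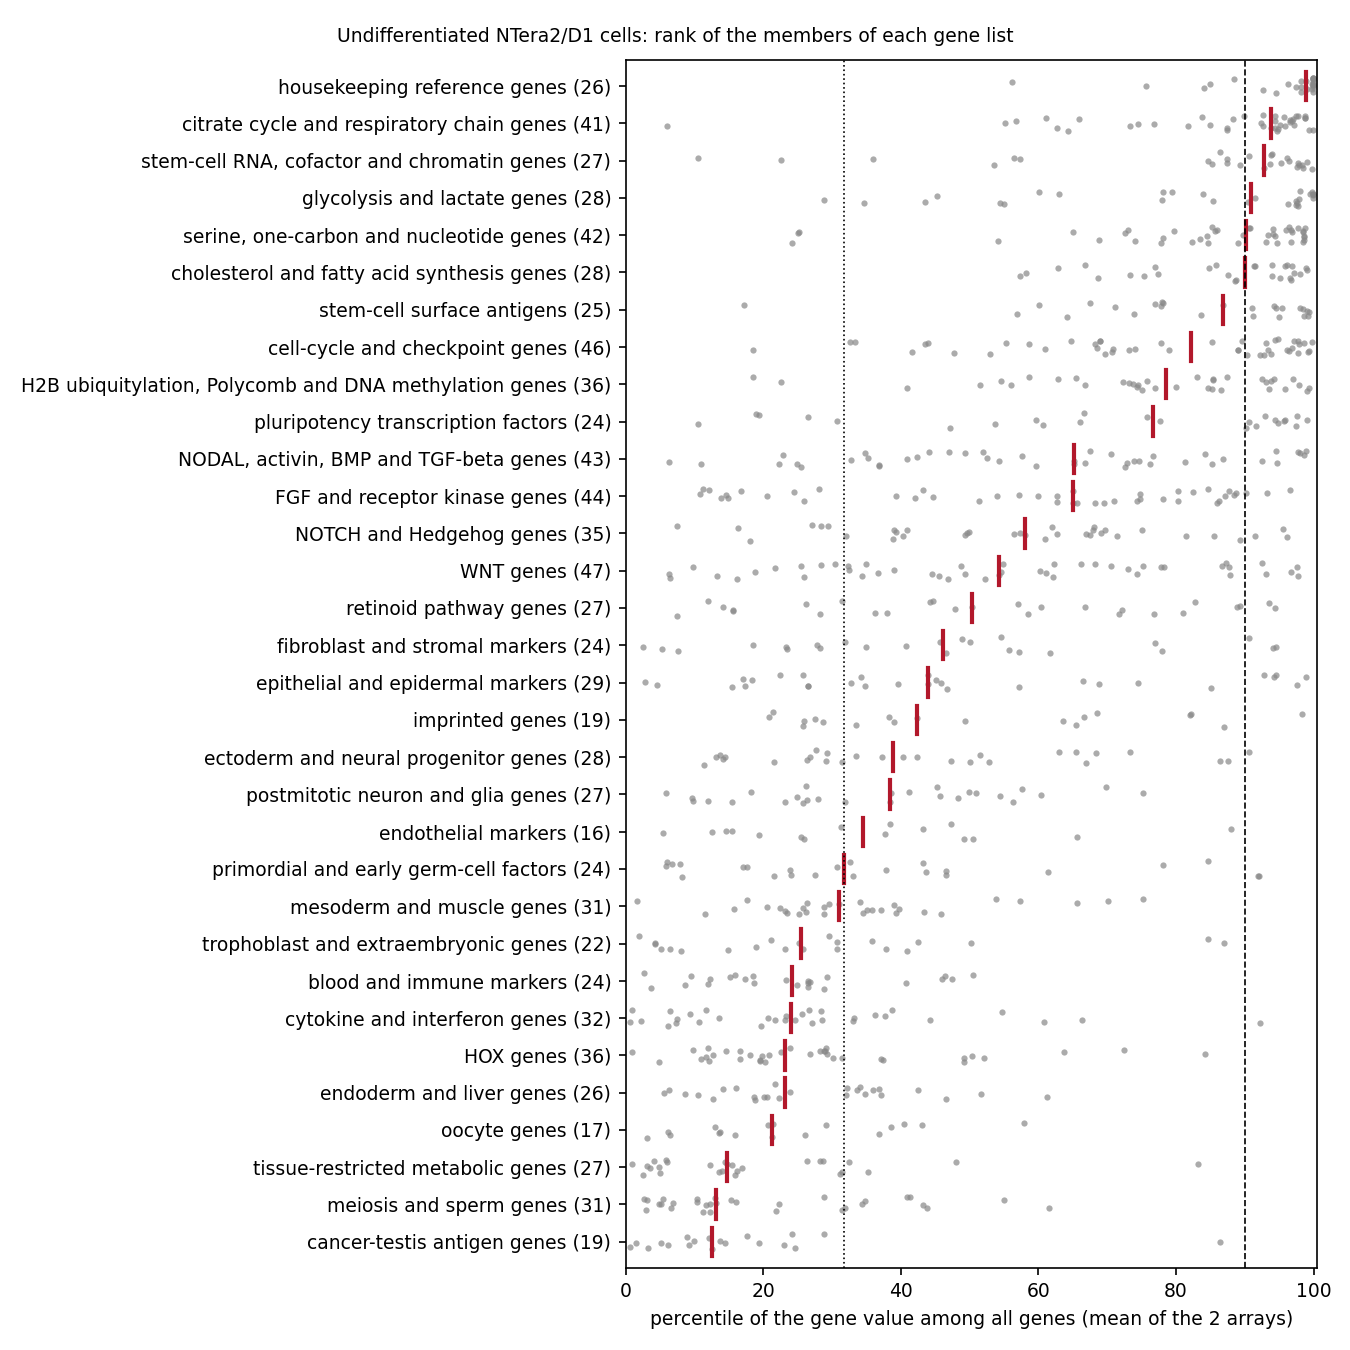
Each grey point is a gene of a list, placed on the x axis at its percentile among 19426 genes (mean of both arrays); rows are the 32 lists with the number of measured members in brackets, and red bars are the list medians. The dashed line marks the 90th percentile and the dotted line the mean rank of the olfactory receptor level; housekeeping, metabolic and stem-cell lists lie right, and meiosis, cancer-testis and tissue-restricted metabolic lists left.

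Core metabolism took many of the highest ranks. Of 28 glycolysis and lactate genes 15 were in the top 10% and 6 in the top 1%, which 0.844% of all genes were. ENO1 (enolase) had 12.30 log2 units in GF117 and 12.34 in GF120. LDHB read 11.84 and 11.96, and TPI1 11.79 and 11.84. SLC2A3 (GLUT3), the high-affinity glucose transporter of neurons and early embryos, stood above SLC2A1, with 11.25 and 11.47 against 9.84 and 10.07, and SLC16A1, a lactate transporter, had 10.81 and 10.98. Isoenzymes known from other tissues were spread over the ranks. PKLR, the pyruvate kinase of liver and red cells, was lowest with 4.48 and 4.69, and HK3 had 4.94 and 5.02. ENO2, the enolase of neurons, was in the top 10% with 9.76 and 10.17, as was PFKM, the phosphofructokinase of muscle, with 8.60 and 8.86, while ALDOC, the aldolase of brain, read 7.72 and 7.65. HK2 (8.64 and 8.57) was in the top 10%, and HK1 (8.61 and 7.79) in GF117 alone.

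Of 41 citrate cycle and respiratory chain genes 24 were in the top 10%, with a median percentile of 93.8. ATP5F1B, the beta subunit of ATP synthase, had 11.86 and 11.88 log2 units, and the malate dehydrogenase MDH2 10.98 and 10.55. PDK4, the kinase that shuts off pyruvate dehydrogenase in fasting, was the only member at the olfactory receptor level, with 3.17 and 2.38. PDK1, its paralogue induced by hypoxia, had 8.60 and 8.50. Both glycolysis and the respiratory chain thus held many top-10% genes.

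Serine, one-carbon and nucleotide genes had 20 of 42 members in the top 10%. PSAT1 and PHGDH, of serine synthesis, had 10.22 and 10.40 and 10.09 and 10.26 log2 units in GF117 and GF120. MTHFD2, the mitochondrial folate enzyme of proliferating cells, had 10.19 and 10.18. GLDC, of the glycine cleavage system, read 8.55 and 8.39. MAT2A, which makes S-adenosylmethionine outside the liver, had 10.17 and 10.28, whereas the liver form MAT1A, with 4.14 and 4.52, was at the olfactory receptor level. The cholesterol and fatty acid list had 13 of 28 members in the top 10% and none at the olfactory receptor level. SCD, the stearoyl-CoA desaturase, led with 10.61 and 10.45. Of 27 tissue-restricted metabolic genes of liver, muscle and fat, 22 were at the olfactory receptor level. CPS1, the first enzyme of the urea cycle, was the exception in rank, at the 82.5th percentile in GF117 and the 83.9th in GF120 over 50 rows.

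In the NODAL, activin, BMP and TGF-beta list ligands and receptors each ran over a wide range. GDF3, a TGF-beta family ligand of pluripotent cells, had 10.29 log2 units in GF117 and 10.62 in GF120. CRIPTO, the coreceptor of NODAL, had 10.14 and 10.39 over 2 rows. NODAL itself was at the olfactory receptor level, with 4.12 and 4.22, and its inhibitors LEFTY1 and LEFTY2 read 5.65 and 5.57 and 5.91 and 5.98. Among receptors BMPR1A (9.91 and 10.02), ACVR2B (9.38 and 8.98) and TGFBR1 (8.71 and 9.02) were in the top 10%, whereas TGFBR2 read 5.98 and 5.62 and BMPR1B 5.03 and 4.69. The BMP targets ID1, at 9.91 and 9.80, and ID3, at 9.51 and 8.87, were too, and BMP4 read 6.13 and 6.41. In all 7 of 43 members were in the top 10% and 6 at the olfactory receptor level.

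FGF2, the growth factor that sustains human pluripotent cells, had 9.36 and 9.76 log2 units, and SPRY2, a feedback inhibitor of this pathway, 8.98 and 8.88. They were the 2 top-10% members of 44 FGF and receptor kinase genes (4.55%, against 8.92% of all genes). FGFR3 (8.45 and 8.26), FGFR2 (7.90 and 8.38) and FGFR1 (7.75 and 8.21) followed. FGF4, a SOX2 and POU5F1 target in mouse, had 6.48 and 7.38. FGF5, FGF8, FGF9 and FGF10 were among 11 members at the olfactory receptor level.

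Of 47 WNT genes 5 were in the top 10%: SFRP2 (10.13 and 9.64), a secreted antagonist, CTNNB1 (10.01 and 9.71), LRP6, GSK3B and FZD3. The 11 members at the olfactory receptor level (23.4%, against 28.9% of all genes) included the ligands WNT2, WNT3, WNT4, WNT7A, WNT7B and WNT8A, the antagonist DKK1 and the effector LEF1. Of the ligands measured WNT5A was highest, with 7.53 and 6.93. The NOTCH and Hedgehog list had RBPJ (9.67 and 9.25), NOTCH2 and JAG1 in the top 10%, or 8.57% of its members, close to the 8.92% of all genes. At the olfactory receptor level were 5 of its 35 members (14.3%, against 28.9% of all genes). HHIP, the Hedgehog-binding inhibitor, was lowest with 2.83 and 3.14. Of 32 cytokine and interferon genes 21 were at the olfactory receptor level, and STAT3, at 8.85 and 8.75, was the only 1 in the top 10%. LIFR read 7.17 and 6.80 and IL6ST 6.76 and 6.58.

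RA is the differentiation signal of this series. As a list the retinoid pathway genes ranked close to all genes, with a median percentile of 50.4 against 49.9, and single members ran over a wide range. The binding protein CRABP2 had 9.18 log2 units in GF117 and 9.04 in GF120. LRAT, which esterifies retinol for storage, had 9.12 and 8.85. The receptors RXRA (6.55 and 6.74), RARG (6.40 and 5.64) and RARA (6.08 and 5.18) stood in the middle, and RARB, itself an RA target, was at the olfactory receptor level with 3.64 and 3.63. CYP26A1, which degrades RA, read 5.46 and 6.22. Of the synthesizing enzymes ALDH1A3 had 7.56 and 7.64, ALDH1A2 4.32 and 4.49, and ALDH1A1 3.28 and 3.39. Of 27 members 2 were in the top 10% (7.41%, against 8.92% of all genes) and 6 at the olfactory receptor level (22.2%, against 28.9%).

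Cell-cycle genes had 18 of 46 members in the top 10%. CCND2, a D-type cyclin, led with 11.54 and 11.32 log2 units, ahead of CDK4 (10.71 and 10.64), CCNB1 and PLK1. MYCN had 9.59 and 9.30, while MYC, over 3 rows, had 7.72 and 6.53. The inhibitors CDKN2C (3.78 and 3.93), CDKN1A (5.13 and 4.58) and CDKN2A (5.74 and 5.45) were low, and CDKN2C was the only member at the olfactory receptor level. CDKN1B, also an inhibitor, stood higher at 8.23 and 8.09.

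Of 36 H2B ubiquitylation, Polycomb and DNA methylation genes 10 were in the top 10%. USP44, a protease that removes ubiquitin from H2B, had 10.12 log2 units in GF117 and 9.77 in GF120, at the 97.9th percentile. RNF20, the ligase that places it, read 8.24 and 8.10, and its partner RNF40 7.41 and 7.27. UBE2A, the conjugating enzyme that works with RNF20, had 9.15 and 8.83, against 6.82 and 6.77 for UBE2B. SUZ12 (8.76 and 8.92) was in the top 10%, EZH2 (8.36 and 7.97) and EED (7.63 and 7.46) were not, and CBX7, a Polycomb reader, was at the olfactory receptor level with 3.50 and 4.17. Of 19 imprinted genes PEG10, with 10.26 and 10.04, was the only 1 in the top 10% (5.26%, against 8.92% of all genes). H19 had 5.25 and 5.73 and IGF2 4.23 and 4.55. At the olfactory receptor level were 4 members in both arrays (21.1%, against 28.9% of all genes) and 7 with GF120 read alone.

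The highest of all genes with at least 4 rows were COX2, ATP6 and COX1, symbols of mitochondrially encoded subunits, with COX2 at 12.72 log2 units in GF117 and 12.66 in GF120. ENO1, RPS2, ACTB and EEF1A1 followed, then TUBB, RPS28, LDHB, ATP5F1B, EEF2, TUBA1B, TPI1, RPL12, ARL6IP1, RPLP2, HSPA8, RPL4 and RPLP0. These are genes of translation, the cytoskeleton, chaperones and energy metabolism, and nuclear copies of mitochondrial and ribosomal genes can share their signal. Housekeeping reference genes had 21 of 26 members in the top 10%, 12 of them in the top 1%, and none at the olfactory receptor level. B2M, the light chain of MHC class I, was their lowest, at the 56.1st percentile, and read 1.27 log2 units lower in GF117 than in GF120. Its rows did not bear this gap out: 13 of 21 were higher in GF120, and the median difference over rows, GF117 minus GF120, was -0.15. The lowest genes were the olfactory receptors OR8H3, OR6C2 and OR1C1, the lymphocyte receptor KLRF1, the defensin DEFB131A, RNF133, SLITRK6, TRIM77, SUCNR1 and the pancreatic REG3A. OR8H3 read 1.47 in each array.

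The 2 arrays agreed closely. Across 19426 genes, which are not independent replicates, Pearson's r was 0.975 and Spearman's rho 0.978. Of the 1943 genes in the top 10% of each array, 1733 (89.2%) were shared. The difference GF117 minus GF120 had a median of 0.07 log2 units and an SD of 0.453. Over 3 equal groups of genes by level the SD was 0.602 for the lowest, 0.398 for the middle and 0.295 for the highest, so high genes were read with less scatter. Above the olfactory receptor level in both arrays were 12718 genes, or 7255 with the 99th percentile as the limit.

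**Figure D4:**
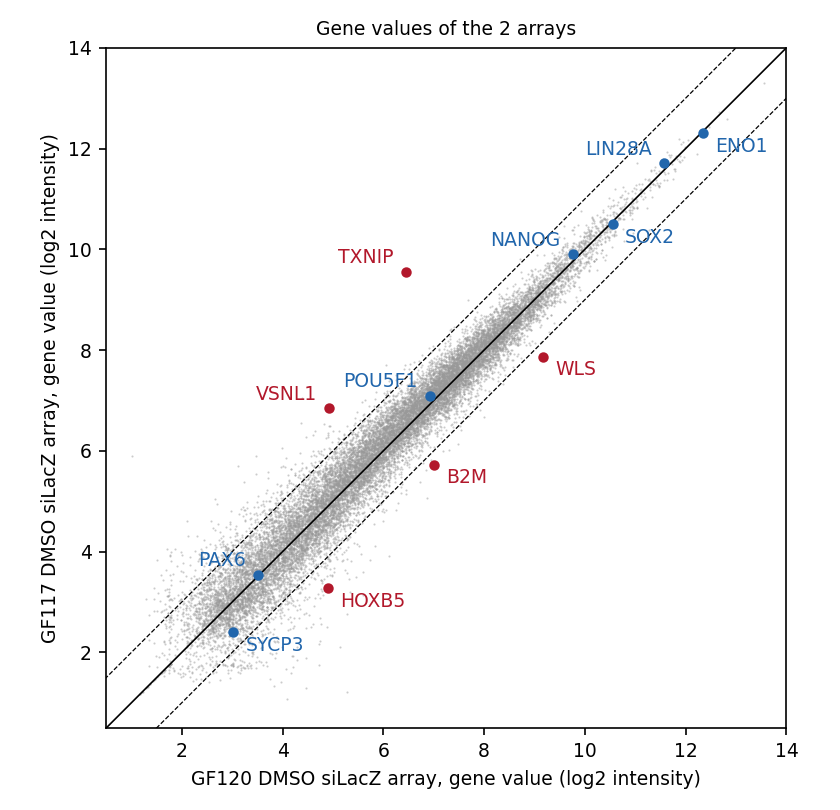
Gene values of 19426 genes in log2 intensity, GF117 on the y axis against GF120 on the x axis; the solid line is equality and the dashed lines mark a 2-fold difference. Named genes within 2-fold are blue and those beyond it red. Of the named genes TXNIP lies farthest above the line, at 9.55 in GF117 and 6.45 in GF120. The largest difference of any gene, in either direction, is 4.89 log2 units.

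More than 2-fold apart were 746 genes, 3.84% of all, 429 higher in GF117 (2.21%) and 317 higher in GF120 (1.63%). Only 82 of the 429 and 27 of the 317 were above the olfactory receptor level in both arrays. Of 910 list genes 28 were among the 746. Of these 28 only 7 were above the olfactory receptor level in both arrays: NCL (9.80 in GF117 and 8.72 in GF120), WLS (7.87 and 9.16), GAP43 (7.76 and 6.61), MYC, DUSP6, B2M and HOXA13. Rows were higher in GF117 in 29 of 31 for NCL, 9 of 11 for GAP43, 3 of 3 for MYC and 7 of 7 for DUSP6, and higher in GF120 in 19 of 22 for WLS. The median row difference, GF117 minus GF120, was 1.22 for DUSP6 and -1.21 for WLS. It was 0.90 for NCL, 0.89 for GAP43 and 0.56 for MYC, short of 2-fold. Rows were split for B2M, as above, and for HOXA13, with 7 of 11 higher in GF117 and a median row difference of 0.18. The 2-fold count was 282 with the mean over rows, 246 without dim rows and 71 with an offset of 16.

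TXNIP stood out. It encodes an arrestin-like protein that binds thioredoxin and limits glucose uptake, and its transcription is known to follow glucose supply. Its level was 9.55 log2 units in GF117 and 6.45 in GF120, and all 16 rows were higher in GF117. The same gap was seen in the DMSO siRNF20 arrays, with 9.21 in GF117 and 6.09 in GF120, whereas the RA siRNF20 arrays read 10.65 and 10.16. ARRDC4, its paralogue with a like regulation, read 6.50 and 4.94 in DMSO siLacZ, a difference of 1.56 log2 units against 1.12 in DMSO siRNF20, and 19 of its 22 rows were higher in GF117. DUSP6, the ERK phosphatase, read 7.70 and 6.06, and 7.76 and 6.37 in the same pairs. ARRDC4 and DUSP6 were named after their values were seen. GF117 was higher in each of these pairs. The labels do not say what the numbers stand for, and the cause of these differences was not tested.

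The TXNIP promoter is printed because it carries CACGAG, any 5 bases and CACGAG again, the letters of a known carbohydrate response element, which only 2 of 14319 promoters held on either strand (TXNIP and KCTD5). The window is chr1:145996530-145996829, minus strand, on GRCh38.p14, and capitals mark the pair at positions -88 to -72. KCTD5 read 8.08 in GF117 and 8.18 in GF120. The planned search did not include this pair, and its letters are those found at TXNIP, so the rarity is not a result. Whether the element bears on the difference between the arrays was not tested.
TXNIP: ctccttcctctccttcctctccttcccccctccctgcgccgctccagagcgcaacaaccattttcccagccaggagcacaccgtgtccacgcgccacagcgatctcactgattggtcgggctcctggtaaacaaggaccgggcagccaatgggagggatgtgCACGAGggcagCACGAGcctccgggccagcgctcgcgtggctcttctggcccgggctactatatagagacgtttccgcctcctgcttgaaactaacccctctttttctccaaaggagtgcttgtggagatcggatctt
With CACGNG at both places, which includes the first pair, 18 promoters matched (0.126%). No match in the window of another gene says only that these letters are not there.

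Among genes with at least 4 rows and above the olfactory receptor level in at least 1 array, the largest differences towards GF117, after TXNIP, were those of VAMP5, NOV, PCDHB9, GRINL1A, VSNL1, RGS7BP, ATP6V1G2, IVL and CYP2A7P1. VSNL1, a neuronal calcium sensor, read 6.84 and 4.92 in DMSO siLacZ, 7.02 and 5.98 in DMSO siRNF20 and 3.13 and 2.59 in RA siRNF20, and all 8 rows were higher in GF117. For VAMP5, a vesicle protein, only 3 of 5 rows were, as for GRINL1A, whose median row difference was 0.10. Towards GF120 they were KRTAP4-3, LOC729609, HS6ST3, RD3, AQP7, PPP1R2C, HOXB5, H1-1, MAGEA10 and PRXL2A, which all read below 6 log2 units in both arrays. The rows of several of these did not bear the difference out. For PRXL2A 4 of 7 rows and for LOC729609 3 of 5 were higher in GF117, with median row differences of 0.04 and 0.22, opposite to the gene value. Rows higher in GF120 were 4 of 7 for HOXB5, 7 of 11 for HS6ST3 and 3 of 5 each for RD3 and H1-1, with median row differences of -0.02 for HOXB5 and -0.06 for HS6ST3.

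**Figure D5:**
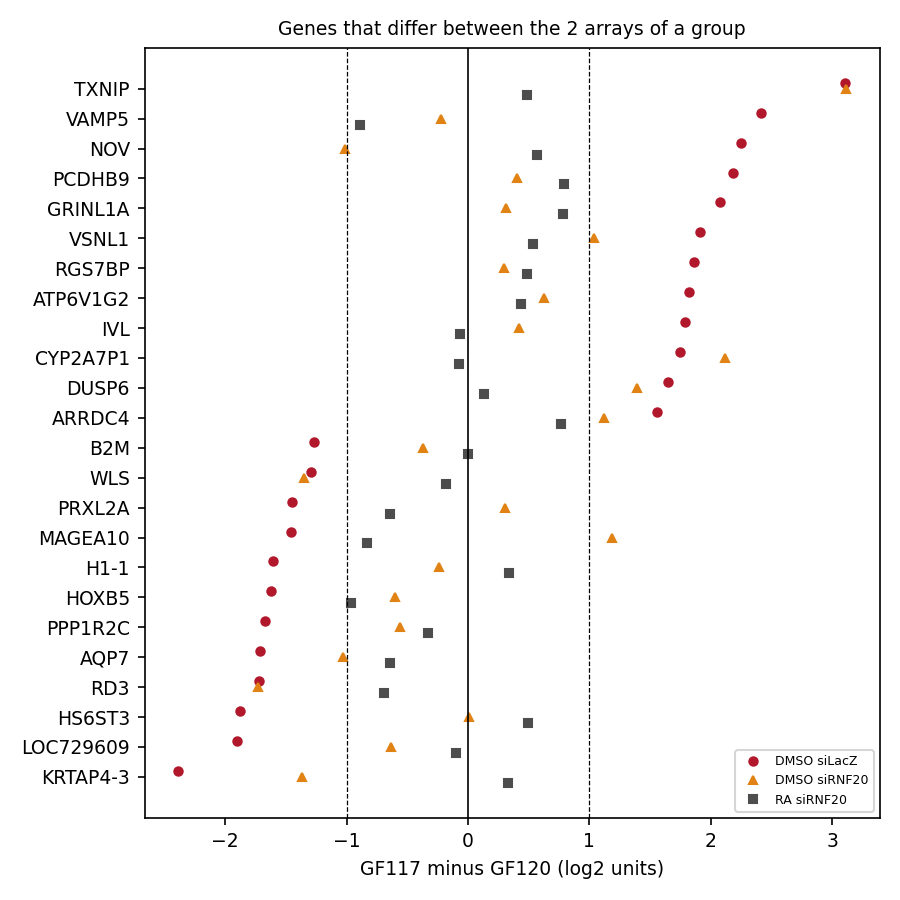
Difference GF117 minus GF120 in log2 units on the x axis for 24 genes, in the DMSO siLacZ (circles), DMSO siRNF20 (triangles) and RA siRNF20 (squares) pairs. The circles chose 20 of the genes by their size; TXNIP lies at 3.10 and 3.12 in the DMSO pairs and at 0.49 in the RA siRNF20 pair.

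The other pairs share no array with the DMSO siLacZ pair. Of the 82 genes more than 2-fold higher in GF117 and above the olfactory receptor level, 70 were also higher in GF117 in the DMSO siRNF20 pair and 64 in the RA siRNF20 pair, against 65.6% and 69.2% of all genes above that level. Of the 27 higher in GF120, 19 and 23 were higher in GF120 in those pairs, against 34.4% and 30.8%. More than 2-fold in the same direction in all 3 pairs were AS3MT, D21S2088E, DNAJB4, HIST1H2BG, PLK2, TBCA and ZNF725P towards GF117, and NHLRC1 and PRSS42P towards GF120, named after their values were seen.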

How the data were processed

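RNA of the 2 DMSO siLacZ arrays was analysed from the deposited table of linear intensities, 1 per array row and array. Per the labels' protocols total RNA was extracted with a column kit and labelled with biotin. The authors' background correction and normalization of these deposited intensities were not given in the sources used here. The 2 arrays had a median row intensity of 17.2 each. Arrays carry no read depth, and having only 2 of them limits the precision.

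Of 1384231 rows 354600 had 1 gene symbol in the platform annotation, 14898 had several and 1014733 were unnamed here and left out. Of 19497 symbols 16426 were current in RefSeq, 2950 were updated and 121 kept, which gave 19426 genes. Intensities were taken as log2 with no further normalization, and the median over a gene's rows gave its value (Python 3.11.15, pandas 2.3.3). The steps were tested on simulated data with 20 random seeds.

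The 32 lists hold 976 genes, of which 910 were measured and the others are not analysed here. Members and lists were chosen with earlier results of these data known. Named were list members, the 20 highest and 10 lowest genes and the 10 largest differences in each direction with at least 4 rows, and POU5F1, SOX2, NANOG, LIN28A, RNF20, RNF40 and USP44. Promoters, 250 bases before to 50 after the start, came from RefSeq (GRCh38.p14), the first listed per gene. Alternatives were the mean over rows, no dim rows, an offset of 16, quantile normalization, genes with at least 4 rows, each array alone and the 99th percentile of olfactory receptors.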

Additional observations from a re-analysis of the deposited data

How the results depend on the processing

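The limits lie in the choice of background and of rows. Leaving out rows at or below the median row removed most silent rows by construction: the correlation of the arrays was 0.939, 246 genes differed 2-fold and 3408 genes stood above the olfactory receptor level. The mean over rows gave 282 genes with a 2-fold difference and an offset of 16 gave 71. With the 99th percentile of the olfactory receptors 7255 genes stood above the level. At or below it in both arrays were 28.9% of genes at the 95th percentile, 57.9% at the 99th and 68.8% without dim rows. CpG-rich promoters in the highest 10% of genes came to 87.8% without dim rows, 90.3% with the last listed promoter and 78.2% at a ratio of at least 0.75, and in the lowest 10% to 52.0% without dim rows and 13.4% at that ratio; the promoter settings were chosen after seeing the data. Without dim rows the counts in the top 10% were 5 for pluripotency factors, 4 for NODAL and TGF-beta, 3 for WNT, 6 for chromatin and 0 for early germ-cell and for cytokine genes, and they were higher for HOX (3), neural progenitor (4), imprinted (4), FGF (3), and endothelial, meiosis, endoderm, neuron and tissue-restricted metabolic genes (1 each). At the olfactory receptor level they were then 7 for cancer-testis, 16 for neural progenitor, 21 for neuron and glia, 24 for mesoderm, 15 for fibroblast, 12 for endothelial, 17 for epithelial, 10 for tissue-restricted metabolic and 10 for imprinted genes, and 22 for NODAL, 30 for WNT, 27 for NOTCH and Hedgehog, 23 for FGF, 20 for retinoid, 19 for cell-cycle, 16 for chromatin, 11 for pluripotency, 8 for surface antigen, 8 for glycolysis, 7 for citrate cycle, 7 for cholesterol, 9 for serine and nucleotide, 4 for stem-cell RNA and 2 for housekeeping genes, which in the report had 11 or fewer each. With the 99th percentile they were 19 for early germ-cell, 20 for neural progenitor, 23 for neuron and glia, 26 for mesoderm, 25 for endoderm, 20 for trophoblast, 17 for fibroblast, 14 for endothelial, 20 for epithelial and 11 for imprinted genes, and 20 for NODAL, 26 for WNT, 17 for NOTCH and Hedgehog, 18 for FGF, 15 for retinoid, 9 for cell-cycle, 7 for pluripotency, 6 each for chromatin and glycolysis, 4 for stem-cell RNA, 3 for citrate cycle, 2 for surface antigen and 1 for cholesterol genes. With at least 4 rows per gene, which leaves fewer genes, they were 6 for neural progenitor, 7 for neuron and glia, 7 for mesoderm, 13 for cytokine, 2 for NODAL, 3 for NOTCH and Hedgehog and 1 for imprinted genes, and no neural progenitor gene was in the top 10%. Of all 18114 genes with at least 4 rows 21.8% were then at the olfactory receptor level, against 28.9% in the report. The imprinted count was 4 to 7 in the single arrays, 7 in GF120. Of 431 values under these alternatives 103 moved, as did 2 of 150 in a single array. A reversal could be recorded only for the differences of TXNIP and ARRDC4, and none was. A count moved where it changed by more than 1.5 times, a percentile by more than the SD of the 2 arrays (small for LIN28A), a share where it left its 95% Wilson interval, a correlation in its second decimal and a difference by 50% or more. Small differences between ranks are not resolved by 2 arrays. No paired analysis was possible because no groups are compared and each GF number holds 1 array of this group.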

Other observations

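Gene families taken by symbol, some of whose members the lists also hold (KRT8, KRT18, RPLP0 and MAGEA3 among them), were set against all genes, of which 8.92% were in the top 10% and 28.9% at the olfactory receptor level. Cytosolic ribosomal proteins had 60 of 80 members in the top 10%, and 28 of the 164 genes in the top 1% belonged to them. Heterogeneous nuclear ribonucleoproteins had 18 of 26 in the top 10% and none at the olfactory receptor level, and translation factors had 34 of 69. Respiratory complex I subunits had 14 of 37 in the top 10%, and mitochondrial ribosomal proteins 16 of 78. Of 521 ZNF genes, the largest family of transcription factors read, only 8 were in the top 10%, while 65 were at the olfactory receptor level and the median percentile was 56.6. Of 13 CCT chaperonin genes 8 were in the top 10%.

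Within proteasome genes 22 of 50 were in the top 10%, whereas PSMB8 (4.63 log2 units in GF117 and 4.53 in GF120) and PSMB9 (4.22 and 4.30), the interferon-inducible subunits of the immunoproteasome, were among 4 members at the olfactory receptor level. Cytochrome c oxidase genes had 7 of 17 in the top 10% and 6 at the olfactory receptor level, among them COX7A1 (4.26 and 4.04) and COX6A2 (3.75 and 3.35), subunits known from heart and muscle. MAGE genes had 3 of 31 in the top 10%, MAGED1 (8.84 in each array), MAGED2 (9.15 and 9.39) and MAGEF1 (9.20 and 8.93), and 23 at the olfactory receptor level. Of 78 keratins KRT8 and KRT18 alone were in the top 10%. Of 38 interleukin genes 30 were at the olfactory receptor level, as were 43 keratins and all 9 interferon alpha genes. The single genes in this paragraph were named after their values were seen.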
